A study of Arabidopsis thaliana with 18 samples.

Results

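Guard cells of Arabidopsis leaves kept in mannitol were compared with guard cells of leaves kept without sugars, on 12 of the 18 ATH1 arrays of the series. The 6 mannitol arrays (3 of wild-type Col-0, 3 of rgs1) and the 6 arrays without sugars (3 of each genotype) were chosen by their sample titles, and all 22746 probe sets were considered. The other 6 arrays, from leaves kept in sucrose, are given beside the genes named for mannitol. The mutant rgs1, also in Col-0, lacks the regulator of G-protein signaling RGS1. Plants of both genotypes were 8 to 10 weeks old and had not flowered. Leaf strips 1 mm wide were exposed to a brief vacuum and kept floating for 5 h under lights on KCl (50 mM) with CaCl2 (0.1 mM), to which mannitol (150 mM) or no sugar was added, so the cutting, the salts and the vacuum were common to both treatments. Each array stood for 1 plant, from which 50 to 100 guard cell pairs were dissected by hand after freeze drying, and whose RNA went through 2 rounds of amplification. Values are log2 signals, and a difference is always mannitol minus without sugars on the log2 scale.

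Guard cells surround the stomatal pore and open or close it by gaining or losing turgor. Mannitol is a sugar alcohol that Arabidopsis takes up and metabolises little, and it is used to lower the water potential around cells without feeding them. Plant cells that lose water typically raise abscisic acid (ABA), which through PYR/PYL receptors, clade A phosphatases, SnRK2 kinases and ABF factors turns on protective genes such as RD29A (LTI78) and RAB18. They also gather compatible solutes such as proline and raffinose-type sugars, change their aquaporins and loosen or stiffen their walls. In guard cells the same hormone closes the pore through anion and potassium channels. The comparison asks which transcripts the osmotic part of a sugar solution changes in these cells.

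The labelled cell type was matched by its markers: all 10 guard cell markers, among them FAMA, MYB60 and KAT1, were measured, and their summed signal ranged from 44497 to 72856 with mannitol and from 54333 to 63310 without sugars. Mesophyll markers were also present, with a summed signal between 7448 and 19787, and the lowest value was that of wild type mannitol replicate 2. Of 5 pavement cell markers 3 were tested, with a summed signal of 5225 to 8147 in wild type with mannitol and 10417 to 11217 without sugars, and of 7944 to 8947 and 8846 to 13141 in rgs1, while the defining markers PDF1 and CER1 lay under a log2 value of 4 on all 12 arrays. The sum was lower with mannitol in wild type, and its part in the results was not tested. It was carried by the bright member KCS10, at -0.63 (adjusted p = 0.258), while ATML1 and HDG2 were at 0.57 and 0.95 (adjusted p = 0.566 and 0.188). The 5 phloem and 4 xylem markers lay under a log2 value of 4 on all 12 arrays. RGS1 lay between 8.17 and 10.37 on the wild-type arrays and between 3.42 and 5.75 on the rgs1 arrays. Values under 4 were taken to say little, and 47.6% to 49.1% of probe sets reached that level on each array. The arrays of 1 treatment were not much more alike than arrays of different treatments: the mean correlation across the 10913 genes tested was 0.828 among mannitol arrays, 0.863 among arrays without sugars and 0.815 between the treatments. Wild type mannitol replicate 2 and rgs1 mannitol replicate 3 stood farthest apart, with mean correlations of 0.740 and 0.794 with the arrays without sugars, where the other mannitol arrays lay between 0.833 and 0.852. Gene results are therefore also given without this pair.

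Few transcripts passed the test between mannitol and no sugars, and more of them were higher than lower with mannitol. Of 10913 genes tested, 30 differed at an adjusted p under 0.05 (0.275%), 18 of them higher with mannitol (0.165%) and 12 lower (0.110%). The rises ranged from 1.83 to 5.94 and the falls from 1.59 to 3.88 on the log2 scale. The raised genes included the drought-related transcription factor MYB2, the kinase MAPKKK19, the phosphatase PFA-DSP1, the glucosyltransferases UGT75B1 and UGT74F2 and the lipoxygenase LOX1. Lowered genes included the transcription factors ATMYC1 and HB34, the transporter OPT6 and the pectin methylesterase PME44. Their number is read against 1718 genes with an unadjusted p under 0.05, of which 789 were higher (7.23% of those tested) and 929 lower (8.51%).

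**Figure D1:**
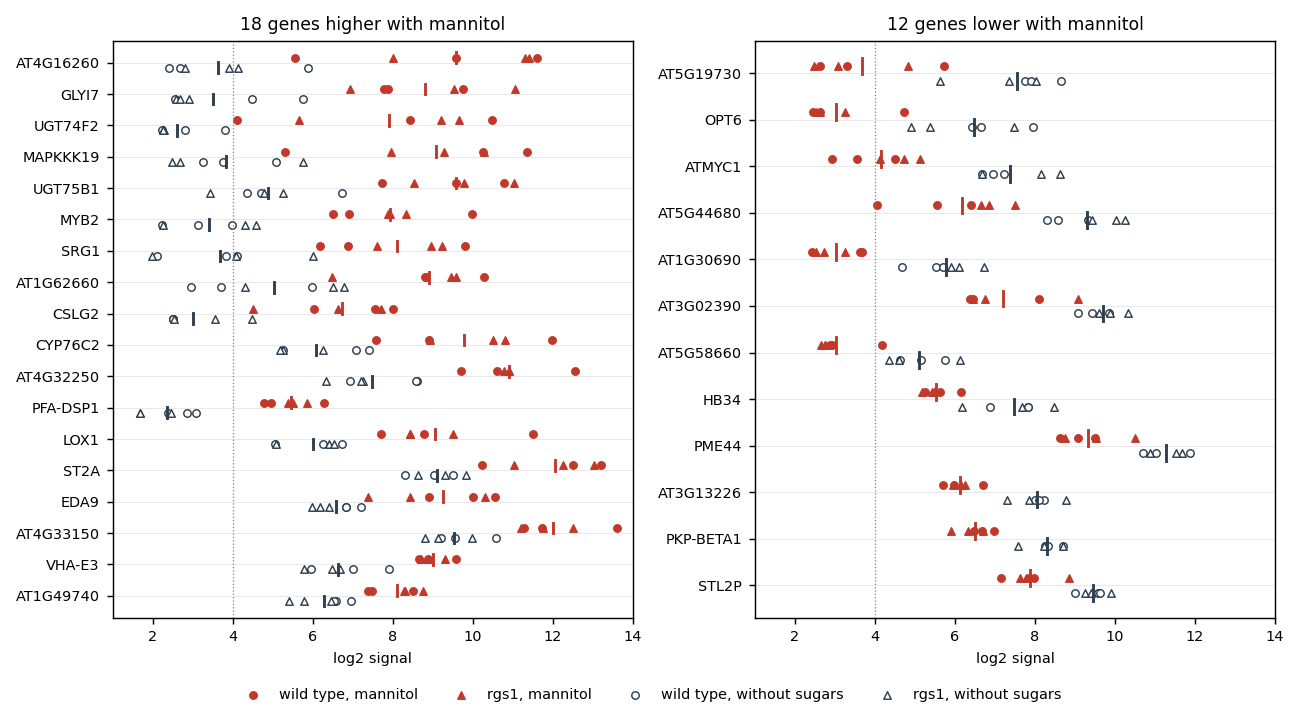
Log2 signal of the 30 genes with an adjusted p under 0.05 on each of the 12 arrays; filled red symbols are mannitol arrays, open symbols arrays without sugars, circles wild type and triangles rgs1, short vertical bars are group means, and the dotted line marks the log2 value of 4. The groups of 6 do not overlap for 26 of the genes; AT4G16260, MAPKKK19, AT1G62660 and AT5G19730 are the exceptions.

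The mannitol and the control arrays did not overlap for 26 of the 30 genes. Their choice on these same arrays favours this, so it is only a description. Of all genes tested, 152 (1.39%) had groups that did not overlap, 85 higher and 67 lower with mannitol. PFA-DSP1, UGT74F2 and AT1G30690 lay under 4 on all 6 arrays of 1 group. They entered the fit only because all 6 arrays of the other group reached 4, which fixed their separation. Several differences rest in part on values under 4: on 4 of the 6 control arrays for AT4G16260, GLYI7, MAPKKK19 and MYB2, on 5 for CSLG2, and on 4 of the 6 mannitol arrays for AT5G19730 and 5 for OPT6 and AT5G58660. The number of genes called rested strongly on which plants were included. Without replicate 2 of every group no gene had an adjusted p under 0.05 by limma, although 1011 had an unadjusted p under 0.05. Without replicate 3 the count was 5, with 2 of them among the 30. Without replicate 1 it was 45, with only 14 of them among the 30, so the genes called changed as well as their number. Leaving out 1 array at a time gave between 14 and 65 genes. The count was 65 without wild type mannitol replicate 3 and 46 without wild type without sugars replicate 1. It fell to 16 without wild type mannitol replicate 2, to 17 without rgs1 mannitol replicate 3, to 14 without wild type without sugars replicate 3, and to 16, 19 and 15 without rgs1 without sugars replicates 1, 2 and 3. With wild type mannitol replicate 2 and rgs1 mannitol replicate 3 both left out, 12 genes were called, 10 of them among the 30. No alternative of processing or of sample choice that was run turned the direction of any of the 30. For the 26 genes without overlap, leaving out arrays could not turn it, so this is only a description.

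**Figure D2:**
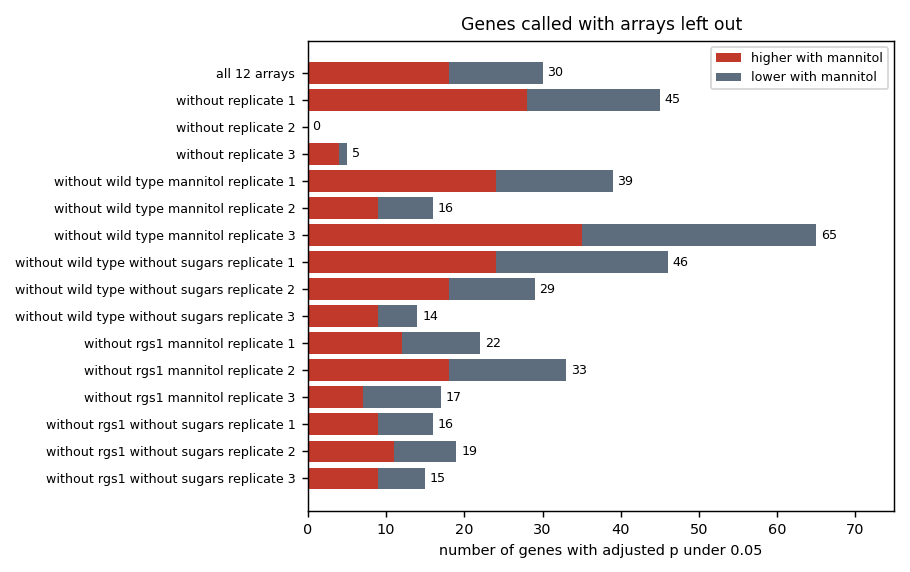
Number of genes with an adjusted p under 0.05 when replicates or arrays were left out, split into genes higher (red) and lower (grey) with mannitol. The bars run from 0 without replicate 2 to 65 without wild type mannitol replicate 3, around the 30 found with all 12 arrays.

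A smaller set kept its call whichever array was left out: MYB2, UGT75B1, GLYI7, CSLG2, AT4G32250, PFA-DSP1 and VHA-E3 among the raised genes, and ATMYC1, AT1G30690 and AT3G13226 among the lowered ones. For PFA-DSP1 and AT1G30690 the filter fixed the separation of the groups, so their kept calls say little. Without the filter 5 genes were called by limma, 4 of them among the 30. None of these 10 genes that kept their call had an adjusted p under 0.05 once all arrays of replicate 2 were gone, since no gene had.

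Genes of signalling and transcription were among the rises. MYB2 (AT2G47190), a MYB factor known to be induced by drought and ABA, measured 6.51, 7.91 and 9.99 (lowest, median and highest) with mannitol and 2.23, 3.56 and 4.57 without sugars. The lowest mannitol array thus stood above the highest control array, with a difference of 4.51 ± 0.59 (SE, 6 against 6 arrays, limma adjusted p = 0.00804). It was the only factor among the 19 tested drought and cold transcription factors to pass the test. PFA-DSP1 (AT1G05000), an atypical dual-specificity phosphatase, had the smallest adjusted p of all genes, 0.00415. It lay under 4 on all 6 control arrays and between 4.78 and 6.27 with mannitol, at least 2.76-fold higher. The filter fixed this separation. AT4G32250, for which the reference gives no symbol, was abundant under both treatments and rose by 3.42 ± 0.50 (adjusted p = 0.0113), from 7.49 ± 0.92 (SD) to 10.91 ± 0.93. MAPKKK19 (AT5G67080), a MAP kinase kinase kinase, rose by 5.24 ± 0.90 (adjusted p = 0.025). Its groups overlapped by 1 array, since wild type mannitol replicate 3 read 5.32 and the highest control array 5.75, and the call was kept for 7 of the 12 arrays when each was removed in turn.

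Several raised genes encode enzymes that modify small molecules by adding sugar or sulfate groups, by oxidation or by detoxification. UGT75B1 (AT1G05560), a UDP-glucosyltransferase, measured 7.74, 9.67 and 11.02 with mannitol against 3.43, 4.74 and 6.74 without sugars. No control array reached the mannitol range, and the difference was 4.69 ± 0.62 (adjusted p = 0.00804). UGT74F2 (AT2G43820), which glucosylates salicylic acid, lay under 4 on every control array and spread from 4.1 to 10.47 with mannitol, at least 15.1-fold higher on average. This spread left its call in only 5 of the 12 fits without 1 array (adjusted p = 0.025 with all arrays). ST2A (AT5G07010), a sulfotransferase of hydroxyjasmonate, was among the most abundant of the raised transcripts, at 12.05 ± 1.17 against 9.10 ± 0.56. CYP76C2 (AT2G45570), a cytochrome P450, and SRG1 (AT1G17020), a senescence-related oxidoreductase, rose by 3.71 ± 0.68 and 4.43 ± 0.74 (adjusted p = 0.0399 and 0.0238). GLYI7 (AT1G80160), of the glyoxalase I family that detoxifies methylglyoxal, ranged from 6.93 to 11.04 with mannitol and from 2.56 to 5.76 without sugars, a rise of 5.32 ± 0.73 (adjusted p = 0.00804).

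Lipid, wall and carbohydrate genes followed. LOX1 (AT1G55020), a 9-lipoxygenase that makes oxylipins other than jasmonate, measured 7.71, 8.61 and 11.50 with mannitol and 5.05, 6.33 and 6.73 without sugars. It rose by 3.06 ± 0.57 (adjusted p = 0.0424), but the call held in only 2 of the 12 fits without 1 array. CSLG2 (AT4G24000), a cellulose-synthase-like protein, stood close to 2.5 on 4 of the control arrays and rose by 3.73 ± 0.58 (adjusted p = 0.016). AT1G62660, which encodes a vacuolar invertase that splits sucrose, rose by 3.86 ± 0.74 (adjusted p = 0.0478). Its groups overlapped, because rgs1 mannitol replicate 2 read 6.47 and the highest control array 6.79, and it held in 2 of the 12 fits. AT1G49740, of a family of phospholipase C-like phosphodiesterases, rose by 1.83 ± 0.35 (adjusted p = 0.0475). AT4G16260, with no symbol in the reference, had the largest rise of all, 5.94 ± 0.97 (adjusted p = 0.0196), and 1 wild-type mannitol array at 5.56 below the highest control array at 5.88.

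Amino acid metabolism and the vacuolar proton pump contributed 3 genes. AT4G33150 encodes LKR/SDH, the bifunctional enzyme that starts lysine breakdown. It was high in control guard cells (9.54 ± 0.65) and rose to 12.01 ± 0.90 (difference 2.47 ± 0.44, adjusted p = 0.0318). EDA9 (AT4G34200), a phosphoglycerate dehydrogenase at the start of serine synthesis, rose by 2.69 ± 0.50 (adjusted p = 0.0429). VHA-E3 (AT1G64200), an isoform of subunit E of the vacuolar H+-ATPase, had the tightest mannitol group of the raised genes, 9.0 ± 0.36, against 6.64 ± 0.76 without sugars. All its mannitol arrays read 8.65 or more and all its control arrays 7.90 or less (difference 2.36 ± 0.36, adjusted p = 0.0151).

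Among the 12 genes that fell, 2 encode transcription factors. ATMYC1 (AT4G00480), a bHLH factor of epidermal cell fate, measured 2.93, 4.31 and 5.12 with mannitol and 6.67, 7.08 and 8.61 without sugars. Every mannitol array was lower than every control array, and the difference was -3.22 ± 0.45 (adjusted p = 0.00804). HB34 (AT3G28920), a zinc finger homeodomain protein, fell by 1.96 ± 0.37 (adjusted p = 0.0449) and was called in 4 of the 12 fits without 1 array.

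The remaining falls covered transport, the cell wall and plastid metabolism. AT1G30690, of the SEC14 family of lipid transfer proteins, lay under 4 on all 6 mannitol arrays and between 4.67 and 6.72 without sugars, at least 3.42-fold lower (adjusted p = 0.00804). The filter fixed this separation. OPT6 (AT4G27730), an oligopeptide transporter, read 2.46 to 3.25 on 5 mannitol arrays and 4.72 on wild type mannitol replicate 1, against 4.91 to 7.95 without sugars (difference -3.43 ± 0.55, adjusted p = 0.0167). The gap between its groups was thus small. PME44 (AT4G33220), a pectin methylesterase, was abundant and fell from 11.28 ± 0.47 to 9.33 ± 0.68 (adjusted p = 0.0396). PKP-BETA1 (AT5G52920), a subunit of the plastid pyruvate kinase, fell from 8.30 ± 0.41 to 6.51 ± 0.37 (difference -1.79 ± 0.28, adjusted p = 0.0167). AT3G13226, of the RecX family, and STL2P (AT2G01470), a SEC12-like protein, fell by 1.92 ± 0.29 and 1.59 ± 0.30 (adjusted p = 0.0151 and 0.0478). The largest fall was that of AT5G19730, -3.88 ± 0.61 (adjusted p = 0.0167), and AT5G44680 followed OPT6 and ATMYC1 with -3.14 ± 0.54 (adjusted p = 0.025). AT3G02390 and AT5G58660 fell by 2.49 ± 0.47 and 2.07 ± 0.38 (adjusted p = 0.0431 and 0.0396). The reference names no symbol for these last 4 loci.

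Within wild type alone, 3 arrays against 3, no gene of 11052 passed (0%) by limma, with all 18 arrays in one fit, or with the replicate number as a block, while 967 had an unadjusted p under 0.05. The wild-type genes with the smallest p were CSLG2, HEI10 and ATMYC1, each with an adjusted p of 0.446. CSLG2 lay under 4 on all 3 wild-type controls and was at least 9.20-fold higher with mannitol, and ATMYC1 differed by -3.29. HEI10 (AT1G53490), known from meiotic crossover formation, read 7.22 to 9.22 on the wild-type mannitol arrays and 4.08 or less on the wild-type controls, and lay under 4 on all 6 rgs1 arrays. In rgs1 alone, 10 of 11095 genes passed (0.0901%), 5 in each direction. All of them but AT4G32250 lay under 4 on all 3 arrays of 1 group. They entered this fit only because all 3 arrays of the other group reached 4, so the filter favours their separation. Without the filter 3 genes passed, 2 of them among the 10. None passed with the replicate number as a block, with 1076 at an unadjusted p under 0.05. Leaving out 1 rgs1 array gave 18 genes without mannitol replicate 1, 1 without mannitol replicate 2 and 0 without mannitol replicate 3 or any 1 of the 3 controls, with 945 to 1050 genes at an unadjusted p under 0.05 in those 4 fits.

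**Figure D3:**
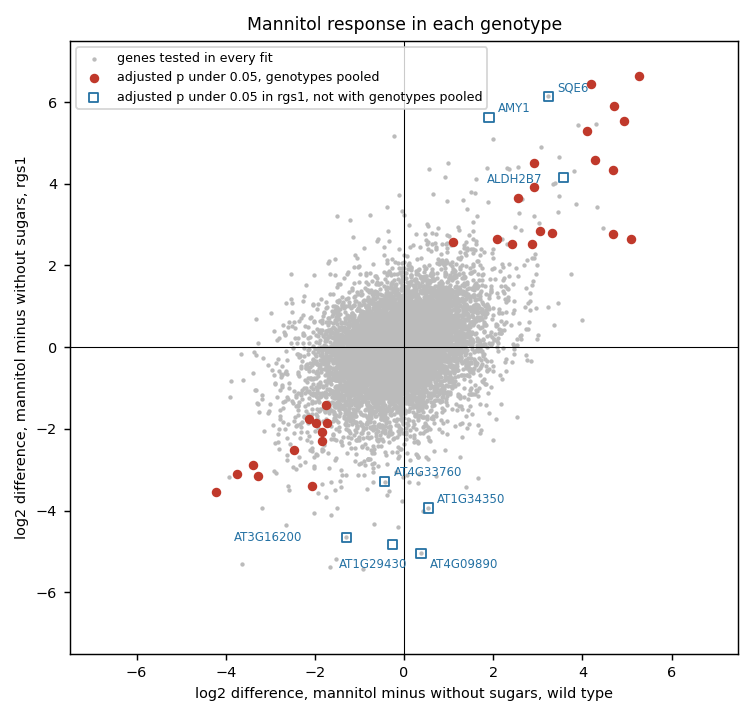
Mannitol difference of each gene in wild type (horizontal, log2) against that in rgs1 (vertical, log2); grey points are the 10714 genes tested in every fit, red points the 30 genes called with the genotypes pooled, blue squares genes called in rgs1 but not in the pooled comparison. The red points lie in the lower left and upper right, while the 5 squares at the bottom lie between -1.30 and 0.54 on the wild-type axis. Differences are plotted as measured, also where a group lies under 4.

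The genes called in rgs1 could be followed in wild-type plants, whose arrays had no part in that choice. All 5 that rose in rgs1 had a higher mean with mannitol in wild type too. Of all shared genes 46.9% lay above 0 in wild type and 53.1% below. Of 514 genes higher in rgs1 at an unadjusted p under 0.05, 82.3% were higher in wild type. Of 520 lower ones, 81.0% were lower in wild type. AT4G32250, measured above 4 on every array, differed by 3.92 in rgs1 and 2.91 in wild type. The other 4 lay under 4 on all 3 rgs1 controls, so only bounds can be given there. SQE6 (AT5G24160), a squalene epoxidase, was at least 37.3-fold higher with mannitol in rgs1, AMY1, an alpha-amylase, at least 16.0-fold, ALDH2B7, an aldehyde dehydrogenase, at least 7.84-fold and PFA-DSP1 at least 3.00-fold. In wild type ALDH2B7 and PFA-DSP1 were at least 6.34-fold and 2.53-fold higher, while SQE6 and AMY1 had 1 and 2 of the 3 control arrays under 4 and differences of 3.24 and 1.91. The 5 that fell lay under 4 on all 3 rgs1 mannitol arrays. AT4G09890 was at least 17.2-fold lower in rgs1, AT1G29430 at least 11.1-fold, AT3G16200 at least 8.59-fold, AT1G34350 at least 5.90-fold and AT4G33760 at least 4.23-fold. Their wild-type differences were 0.38 for AT4G09890, -1.30 for AT3G16200, 0.54 for AT1G34350 and -0.44 for AT4G33760, and AT1G29430 lay under 4 on all 6 wild-type arrays. The difference between genotypes passed its own test for 1 gene of 11960 (0.00836%), AT1G29430, of an auxin-responsive family, with an interaction of -4.58 (adjusted p = 0.0426), and 492 genes had an unadjusted p under 0.05. The other 4 genes that fell in rgs1 did not pass it. AT1G29430 read 7.21, 7.28 and 7.93 in rgs1 without sugars and 3.58 or less on the other 15 arrays of the series. It thus entered this test only through the 3 rgs1 arrays without sugars. When any 1 of these was left out it no longer passed the filter, which fixed the loss of its call. The call was also lost when any 1 of the other arrays was left out except wild type without sugars replicate 1, in whose absence 2 genes were called.

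Across all genes the genotypes moved alike in part. The Pearson correlation of the wild-type and rgs1 differences was 0.41 across 10714 genes, which are not independent of each other and whose arrays share growth batches. Of 346 genes higher in wild type at an unadjusted p under 0.05, 275 (79.5%) were also higher in rgs1, where 50.1% of all genes were above 0. Of 581 genes lower in wild type, 449 (77.3%) were lower in rgs1, where 49.9% of all genes were below 0. The 30 genes of the pooled comparison had the same sign in both genotypes, which their choice on these same arrays favours, so this is only a description.

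The lists of 24 pathways and gene groups hold 380 different genes that were tested, and 3 of these were called: MYB2, LOX1 and AT1G62660, each higher with mannitol. The other list members are therefore described by their values, beside a median difference of -0.03 over all genes tested. Of all genes tested 48.0% lay above 0, 7.23% were higher and 8.51% lower at an unadjusted p under 0.05, and the counts of list members are to be read against these shares.

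**Figure D4:**
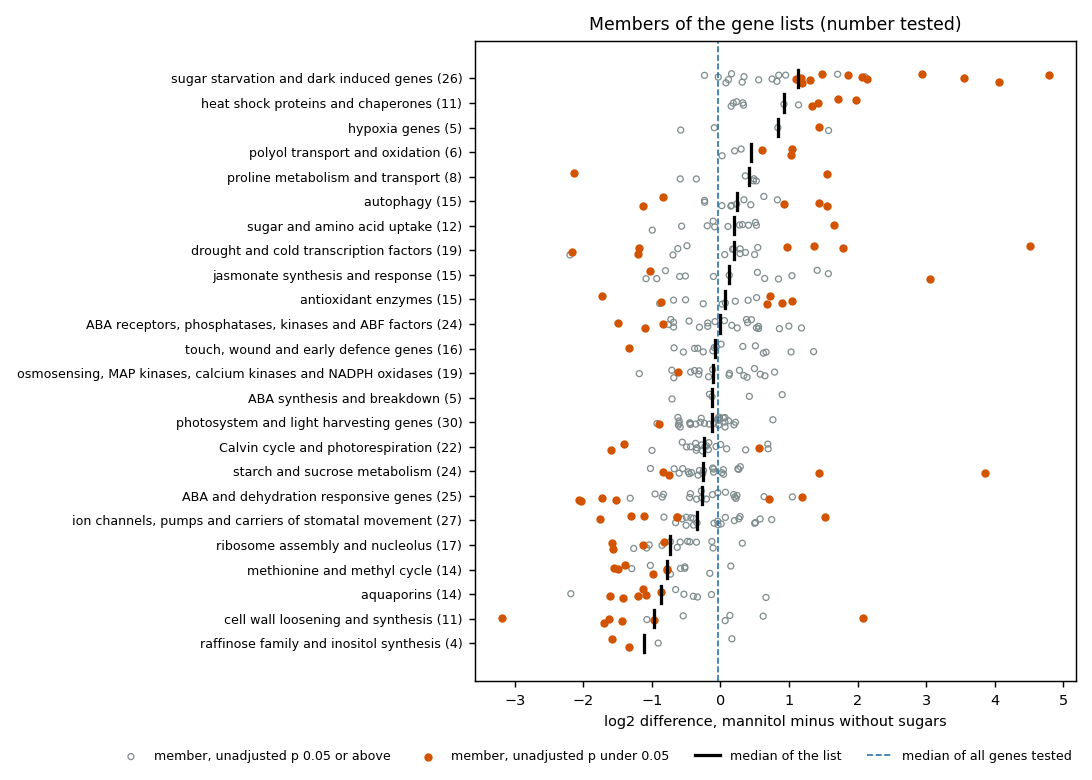
Log2 difference (mannitol minus without sugars) of every tested member of the 24 gene lists, one row per list with the number of members in parentheses; orange points have an unadjusted p under 0.05, black bars are list medians and the dashed blue line is the median of all genes, -0.03. The sugar starvation list has the highest median, 1.14, and the raffinose and inositol list the lowest, -1.12.

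Genes known to respond to ABA and dehydration were not higher as a group. Of 25 tested, 9 lay above 0 and 16 below, with a median of -0.27 and none called, 2 with an unadjusted p under 0.05 higher and 4 lower. LTI78 (RD29A) and RAB18, textbook markers of the response, were already near the top of the scale in control guard cells, at 14.19 ± 0.23 and 14.18 ± 0.62, and read 13.84 ± 0.45 and 13.91 ± 0.57 with mannitol. LTI65 (RD29B) was low in both, 5.35 ± 1.35 without sugars and 4.50 ± 0.55 with mannitol. The dehydrin gene ERD10 and LEA4-5, a late embryogenesis abundant protein, had the lowest differences, -2.03 ± 0.76 and -2.07 ± 0.76 (adjusted p = 0.224 and 0.218), and ERD1, a chloroplast protease subunit, the highest, 1.19 ± 0.40 (adjusted p = 0.18). With wild type mannitol replicate 2 and rgs1 mannitol replicate 3 left out, the median of the list was 0.05.

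No tested gene of the ABA pathway itself was called. The 24 receptors, phosphatases, kinases and ABF factors divided evenly, 12 above and 12 below 0, with a median of -0.01 (0.15 without the pair of arrays that stood apart), and the 3 with an unadjusted p under 0.05 were all lower. They included ABF3, a factor that binds ABA response elements, at -1.49 ± 0.62 (adjusted p = 0.271) and the receptor PYR1 at -1.10 ± 0.43 (adjusted p = 0.242). The even division held families that lay apart. The receptors lay below 0, from -1.10 (PYR1) to -0.31 (PYL1), except PYL7 at 0.38. The phosphatases lay above 0, from 0.06 (ABI1) to 1.18 (HAI1, adjusted p = 0.487). Kinases and ABF factors lay on both sides. Only 5 of 14 genes of ABA synthesis and breakdown were expressed enough to test, and none had an unadjusted p under 0.05. Drought and cold transcription factors other than MYB2 lay on both sides: HB-7, a homeodomain factor induced by water deficit, at 1.79 ± 0.43 (adjusted p = 0.0888), NAC3 and RD26 at 1.37 and 0.97, against MYB102 at -2.17 ± 0.52 (adjusted p = 0.0888).

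Solute and water genes gave a mixed picture. In the list of polyol transport and oxidation all 6 tested members lay above 0 (median 0.45), and the mean of the list per array ran from 10.97 to 11.54 with mannitol and from 10.38 to 10.88 without sugars, with no overlap. It was the only one of the 24 lists without overlap. ELI3-1, a cinnamyl alcohol dehydrogenase relative, was abundant and had non-overlapping groups, 12.32 to 12.97 against 11.49 to 12.05, with a difference of 1.04 ± 0.24 (adjusted p = 0.0872). Its relative ELI3-2 differed by 1.03 (adjusted p = 0.214), and these 2 had the largest differences of the list. The polyol transporter PMT5 read 13.17 ± 0.39 and 12.57 ± 0.32 (adjusted p = 0.306). PMT6, annotated by the authors as a putative mannitol transporter, read 12.43 ± 0.47 and 12.40 ± 0.62 (adjusted p = 0.977). AT2G20780 and AT5G51970 differed by 0.30 and 0.21. Proline genes showed no common direction, 5 above and 3 below 0, with DELTA-OAT, an ornithine aminotransferase, at 1.55 ± 0.36 and the proline transporter ProT3 at -2.14 ± 0.48 (adjusted p = 0.0888 and 0.0856). Both myo-inositol phosphate synthases measured were lower, MIPS2 at -1.58 ± 0.45 and MIPS1 at -1.33 ± 0.38 (adjusted p = 0.129 and 0.132). Of 14 aquaporins 13 lay below 0, with a median of -0.86, none called, and 6 with an unadjusted p under 0.05, all lower. PIP2;5 at -1.60 ± 0.46 and PIP1B at -1.42 ± 0.41 (adjusted p = 0.129 and 0.135) were water channels of the plasma membrane, and PIP1B spread from 10.03 to 12.55 with mannitol where the controls lay between 12.21 and 12.88. Without the pair of arrays that stood apart the median of the aquaporins was -0.87.

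Channels and walls, through which guard cells move, were described the same way. Of 27 ion channels, pumps and carriers 17 lay below 0 (median -0.34), none was called, and 5 of the 6 with an unadjusted p under 0.05 were lower, among them the anion channel SLAH3 at -1.76 ± 0.62 (adjusted p = 0.202). The exception was the potassium transporter KUP6 at 1.52 ± 0.33 (adjusted p = 0.074), whose mannitol arrays, 8.43 to 9.90, lay just above the highest control array at 8.39. Wall loosening and synthesis genes had a median of -0.96 over 11 members, 5 lower and 1 higher at an unadjusted p under 0.05. XTH7 read -3.18 ± 1.26, with mannitol arrays from 1.91 to 9.05, and XTH24, a related wall-remodelling enzyme, 2.08 ± 0.84 (adjusted p = 0.247 and 0.258).

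The list with the highest median was that of genes induced by darkness and sugar starvation, 1.14 over 26 members, of which 24 lay above 0. None was called, and 12 had an unadjusted p under 0.05, all higher, where 7.23% of all genes tested were. DIN11 at 4.79 ± 1.35, the beta-galactosidase BGAL4 at 4.05 ± 1.32 and SEN1 (DIN1) at 3.55 ± 1.23 were the highest by measured difference (adjusted p = 0.127, 0.169 and 0.195). DIN11 lay under 4 on 5 of the 6 control arrays, and BGAL4 and SEN1 on 1 each, so these differences rest in part on weak values. Their arrays spread widely within both groups, DIN11 from 2.89 to 12.63 with mannitol, BGAL4 from 3.02 to 10.68 without sugars. The transcription factor bZIP1 and IVD, an enzyme of leucine breakdown, differed by 2.13 ± 0.71 and 2.06 ± 0.53 (adjusted p = 0.177 and 0.0967). The mean of the list per array was 8.91, 9.87 and 11.31 (lowest, median and highest) with mannitol and 7.73, 8.55 and 9.59 without sugars, so the groups overlapped. On the sucrose arrays it lay between 6.37 and 7.08, below every array of the other treatments. The authors report several members, among them SEN1, BGAL4, BXL1 and bZIP1, as lower in sucrose than in mannitol on these same arrays. The list was written with earlier results known, so its low sucrose level is only a description. That choice can also favour a high level with mannitol. Without the pair of arrays that stood apart the list's median was 0.67.

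Heat shock proteins and chaperones had all 11 tested members above 0 (median 0.92, or 0.47 without the pair of arrays that stood apart), with 4 at an unadjusted p under 0.05 and none called. HSP90.1 read 9.41 ± 1.01 with mannitol and 7.43 ± 0.58 without sugars, groups that did not overlap (difference 1.98 ± 0.45, adjusted p = 0.0862), and the factor HSFA2 differed by 1.71 ± 0.73 (adjusted p = 0.281). The methionine and methyl cycle had 13 of 14 members below 0 (median -0.78), 6 of them with an unadjusted p under 0.05. XPL1, which methylates phosphoethanolamine, was lower on every mannitol array, at 3.03 to 4.98 against 5.03 to 6.13 (difference -1.55 ± 0.37, adjusted p = 0.0888). Ribosome assembly genes had 16 of 17 members below 0 (median -0.73, or -0.28 without the pair of arrays that stood apart), with 4 at an unadjusted p under 0.05, among them PWP2 at -1.57 ± 0.55 (adjusted p = 0.199). Hypoxia genes had a median of 0.84 over 5 members, autophagy genes 0.24 over 15, which turned to -0.13 without that pair and was -0.07 in wild type, and uptake of sugars and amino acids 0.19 over 12 (0.085 without the pair). In the last of these lists AAT1, an amino acid transporter, was at 1.65 (adjusted p = 0.0856). The jasmonate list held LOX1 as its only call, the 9-lipoxygenase whose products are not jasmonates, and had a median of 0.13 over 15 (0.51 without the pair). Antioxidant enzymes (median 0.07 over 15, turned to -0.32 without the pair) and osmosensing and MAP kinase genes (-0.11 over 19) held none that was called. Starch and sucrose metabolism had a median of -0.25 over 24 members, with SUS1, a sucrose synthase, at 1.44 and AT1G62660 the only call. Photosystem genes had a median of -0.13 over 30 members, 22 of them below 0, with -0.39 in wild type and -0.05 in rgs1. Calvin cycle genes had a median of -0.24 over 22 members, 16 of them below 0, with -0.45 in wild type and 0.01 in rgs1. Without the pair these 2 medians were -0.11 and -0.01. Touch and wound genes, with -0.08 over 16 (0.052 without the pair), lay close to the median of all genes. In pools of cells dissected by hand, such as these, fewer cells of a type carried along and less RNA per cell cannot be told apart. The mesophyll markers had a median of -0.19 over 6 and the guard cell markers -0.06 over 10.

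Sucrose at the same concentration lowers the water potential as mannitol does and is also metabolised. It differed from mannitol in 259 of 10979 genes (2.36%) and from no sugars in 449 of 10937 (4.11%). These comparisons share arrays with that of mannitol, so the 3 levels of a gene are given side by side and no overlap is counted. The genes were chosen on the mannitol and control arrays, which favours differences of sucrose from either. The p-values of sucrose given for them are therefore only a description. Some genes that rose with mannitol stood near the control level in sucrose. GLYI7 had a mean of 8.82 ± 1.54 with mannitol, 3.50 ± 1.32 without sugars and 3.97 ± 1.63 with sucrose, and sucrose differed from mannitol by -4.85 (adjusted p = 0.00912). By mannitol, control and sucrose mean in turn, UGT75B1 (9.57, 4.88 and 5.61), LOX1 (9.07, 6.01 and 5.4) and AT1G49740 (8.11, 6.29 and 6.15) were each lower in sucrose than in mannitol with an adjusted p of 0.0181, 0.00912 and 0.0181.

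**Figure D5:**
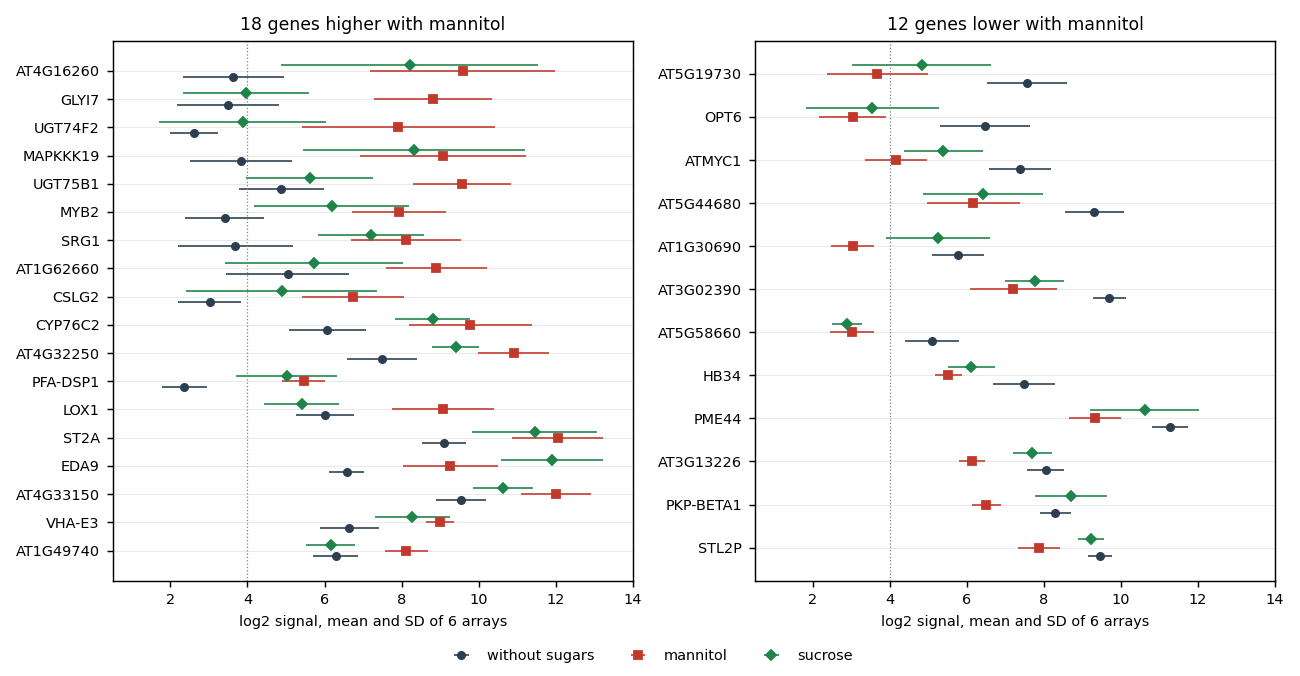
Mean log2 signal and SD (bars) of 6 arrays each for the 30 genes under no sugars (dark circles), mannitol (red squares) and sucrose (green diamonds); the dotted line marks 4. GLYI7, UGT75B1, LOX1 and AT1G49740 have sucrose means near those without sugars, while SRG1, CYP76C2 and AT5G44680 have sucrose means near those of mannitol, and EDA9 is highest in sucrose.

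Other genes had sucrose levels near those of mannitol. SRG1 read 8.12 ± 1.44 with mannitol, 7.21 ± 1.37 with sucrose and 3.69 ± 1.49 without sugars, CYP76C2 9.78 ± 1.59, 8.81 ± 0.97 and 6.08 ± 0.99, and MAPKKK19 9.07 ± 2.16, 8.32 ± 2.87 and 3.83 ± 1.32. Each was higher in sucrose than without sugars (adjusted p = 0.0213, 0.0146 and 0.0395), and none differed between sucrose and mannitol by the test (differences of -0.91, -0.97 and -0.75, adjusted p = 0.549, 0.482 and 0.805). AT5G44680, at 6.17 ± 1.21, 6.43 ± 1.56 and 9.31 ± 0.77, and AT3G02390, at 7.20 ± 1.13, 7.76 ± 0.77 and 9.69 ± 0.43, were low in both solutions in the same way (sucrose against no sugars, adjusted p = 0.026 and 0.0153). EDA9 went further in sucrose, 11.89 ± 1.32, than in mannitol, 9.26 ± 1.23, from 6.57 ± 0.46 without sugars, although the step from mannitol to sucrose missed the threshold (adjusted p = 0.0541). The authors, who filtered by absent calls instead, list this gene as higher in sucrose than in mannitol at a false discovery rate under 0.05 on the same arrays. Of the lowered genes, PKP-BETA1, AT3G13226 and STL2P stood at 8.70, 7.70 and 9.23 in sucrose, near their control means of 8.30, 8.04 and 9.46, and were higher in sucrose than in mannitol (adjusted p = 0.0181, 0.0211 and 0.0427).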

How the data were processed

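The deposited values are log2 signals, 1 per probe set, which the authors made from ATH1 scans with GCRMA (background correction, normalization between arrays, summary of probes). No further normalization was applied, and both deposited tables hold the same values. Of 22746 probe sets 21447 could be paired with 1 gene of the reference table.

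Genes with a log2 value of at least 4 on 6 of the 12 arrays (3 of 6 within a genotype, 3 of 12 for the interaction) entered limma (version 3.58.1, under R 4.3.3), and p-values were adjusted after Benjamini and Hochberg at a threshold of 0.05. This filter stands in for the authors' removal of absent calls. The wild-type and rgs1 arrays were pooled as replicates, as in the methods. The fit was tested on simulated data.

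"At least" folds set values under 4 to 4 in the dim group. Named are the 10 largest changes each way, the largest 3 members and all called members of each list, RGS1 and the 3 smallest p in each genotype; the other called genes and those called in rgs1 were added after their values were seen. Not every list member is printed. The members and lists were chosen with earlier results of these data known. Replicates were separate plants, and replicate 3 was taken as the later growth batch of the methods. Equal replicate numbers were not taken to pair the samples, although their deviations correlated at up to 0.28. No sequences or promoter motifs were analysed here.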

Additional observations from a re-analysis of the deposited data

Results flagged for a closer look

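In AT1G29430 the mannitol difference in rgs1 minus that in wild type was -4.58 (limma interaction, adjusted p = 0.0426), and it rests on 3 arrays of rgs1 without sugars.

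Among the genes named, 14 groups of 6 arrays had 1 array set apart from the others by its gap, of 214 groups examined. Chance gives about 1 in 20. In the control group, wild type replicate 1 stood apart in UGT74F2 (3.80, others 2.25 to 2.82), HD2B (7.05, others 8.42 to 9.23) and HEI10 (2.79, others 3.68 to 4.08), and wild type replicate 2 in ELI3-1 (12.05, others 11.49 to 11.70) and AMY1 (4.71, others 2.37 to 2.43). Control arrays of rgs1 stood apart in ADH1 (replicate 1, 6.17, others 3.21 to 4.2), SLAH3 (replicate 1, 6.97, others 8.25 to 8.91), DIN11 (replicate 2, 4.82, others 2.85 to 3.00), DELTA-OAT (replicate 2, 9.30, others 7.79 to 8.35) and ALDH2B7 (replicate 3, 2.25, others 3.08 to 3.14). With mannitol, wild type replicate 1 stood apart in OPT6 (4.72, others 2.46 to 3.25), AT5G58660 (4.17, others 2.65 to 2.94) and TRX5 (9.82, others 11.22 to 11.63), and wild type replicate 2 in XTH16 (7.76, others 10.64 to 11.73).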

How the results depend on the processing

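The count of 30 genes stayed within 1.5 times under quantile normalization, median centring, both other level filters, array weights, an intensity trend, a robust prior, a genotype term and a term for the later batch. It was 5 without a filter and 5 with gene-by-gene t statistics, 50 with all 18 arrays in one fit, 13 with a replicate block that also held genotype, 5 in the earlier batches, 0 in the later batch (1182 at an unadjusted p under 0.05) and 12 without the 2 arrays that stood apart, an alternative chosen after the data had been seen. Thresholds of 0.1 and 0.2 gave 196 and 684 genes, and an unadjusted p under 0.05 gave 1718. Leaving out arrays or replicates gave 0 to 65. The replicate block gave 29 genes, 22 of them among the 30 (13 higher, 16 lower). Deviations of equal replicate numbers correlated from -0.13 to 0.28. They lay above 0.1 in 5 of 18 pairs, and in 0 of the 6 pairs within a genotype, so the numbers are not taken as pairs. A shared batch effect is not excluded by this.

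In wild type the count was 0 under every alternative run, and 967 at an unadjusted p under 0.05. In rgs1 it was 3 without a filter, 0 with the replicate block and 0 to 18 with arrays left out, and 1099 at an unadjusted p under 0.05. The genotype difference was called in 0 genes with the replicate block, 0 to 2 with arrays left out and 492 at an unadjusted p. Sucrose against mannitol gave 57 genes without a filter and 6 to 294 with replicates left out, and sucrose against no sugars 164 and 27 to 179. Both kept their counts within 1.5 times with the block, at 236 and 514.

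No direction turned among the 30 genes, but 397 of 980 of their values under alternatives missed the threshold. Where the groups of a gene did not overlap, leaving out arrays could not turn its direction. Among list members named by rule, replicate 3 alone turned JAZ8 (-0.39), WRKY53 (-0.51), HAI1 (-1.01), LBD41 (-0.28), TCH2 (0.37), TIP2;2 (0.68) and ABA3 (-1.03). PSBO2 was -0.62 without replicate 3 and TPS5 0.40 without the 2 arrays. TPS5 ran from -2.20 to 0.35 and ABA3 from -0.37 to 1.14 with replicates or arrays left out. ABA3 was -0.054 with array weights and -0.47 without the 2 arrays. The cause was not tested. With 6 arrays a group the precision is limited by their number, and values under 4 on the log2 scale limit what can be said of weakly expressed genes.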
